A study of Rattus norvegicus with 6 samples.

Results

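Known target genes of the hypoxia-inducible factors were followed in the renal cortex of rats given dipropylene glycol (DPG), a glycol solvent, or water. The 10 genes were Vegfa, Adm, Epo, Egln3, Ankrd37, Pdk1, Pgk1, Bnip3, P4ha1 and Ndrg1, out of 15645 genes that probes on the array could be matched to. They were chosen for their known regulation by low oxygen, with earlier results of these data known. Their 19 probes were found through the RefSeq transcript accession that the scanner files give for each probe. The DPG group was 3 male Sprague-Dawley (Crl:CD(SD)) rats given 1000 mg/kg/day for 4 weeks, and the control group was 3 male rats of the same strain given water for 4 weeks. All animals were 5 weeks old when bought, and the labels name no genotype beyond the strain. Neither the route of dosing nor the vehicle of DPG is named in the labels. Total RNA of the renal cortex, the outer kidney with glomeruli and most proximal tubules, was labelled with Cy3 and put on 1 one-colour Agilent array per rat.

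Hypoxia-inducible factors are transcription factors made of an oxygen-regulated alpha subunit (HIF1A, EPAS1 or HIF3A) and the stable subunit ARNT. When oxygen is present, prolyl hydroxylases of the EGLN family mark the alpha subunit, and the VHL ubiquitin ligase complex removes it. When oxygen is low the alpha subunit persists, and the factor binds short ACGTG or GCGTG motifs near its targets. In the kidney the pathway is best known for erythropoietin made by interstitial cells, and the tubules also use it to turn on glycolysis and blood vessel growth.

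No hypoxia-inducible gene passed the adjusted threshold, and their log2 fold changes lay on both sides of 0. Signal was well above background for 17 of the 19 probes, which covered 9 of the 10 genes, and each of the 17 was well above background on all 6 arrays. The other 2 probes were those of Epo. Of the 9 measured genes, 5 had a log2 fold change above 0 and 4 below 0, where 50.8% of all features lay above 0, with a median of 0.021, against a median of 0.003 over all 29647 features tested. At an adjusted p of 0.05 limma called 0 of the 9 genes, where 0% of all features were called, and the adjusted p of the members lay between 0.313 and 0.946. At an unadjusted p of 0.05 limma passed 2 of the 9 genes (22.2%), where 12.4% of all features passed. P4ha1 was the higher one, where 6.68% of all features were higher, and Ndrg1 the lower one, where 5.7% were lower. For these same 2 genes the DPG and control ranges were fully separate, as they were for 19.7% of all features (10.7% with DPG higher and 8.96% with DPG lower).

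Arrays differed little in depth. Between 41524 and 41937 of 61537 probes were well above background on the DPG arrays, against between 39556 and 43184 on the control arrays, with the lowest count in control 3. Pearson correlations across features lay between 0.992 and 0.994 within the DPG group, between 0.991 and 0.993 within the control group, and between 0.989 and 0.993 across groups. The DPG arrays lay on 1 slide scanned in 1 run and the control arrays on another slide scanned in another run, so slide, scan run and group cannot be told apart. The series' design text calls the replicates biological. The proximal tubule genes Slc34a1 and Slc22a6 and the thick ascending limb gene Umod were well above background on all 6 arrays. This shows kidney tubule RNA, which other kidney regions can hold too, so the cortex label itself was not tested.

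RefSeq promoter windows of the rat assembly GRCr8, which run from 250 bases before to 50 after the gene's start, were available for 8 of the 10 members. The motif ACGTG or GCGTG was searched on both strands. An ACGTG on each strand can overlap in CACGTG, which then counts as 2 matches. Of the 8 members 5 held a match, whereas 41.6% of all 33469 windows in the table held at least 1 match. The windows of Egln3, Adm and Vegfa held no match, and that of Epo held 1. The 4 windows with the most matches among the members are shown because they hold the core letters of the factor's binding motif close to the gene start. They are written 5′ to 3′ on the strand of the gene, with the matches in capitals (a match on the opposite strand reads CACGT or CACGC).
Ankrd37, chr16:53001257-53001556, plus strand: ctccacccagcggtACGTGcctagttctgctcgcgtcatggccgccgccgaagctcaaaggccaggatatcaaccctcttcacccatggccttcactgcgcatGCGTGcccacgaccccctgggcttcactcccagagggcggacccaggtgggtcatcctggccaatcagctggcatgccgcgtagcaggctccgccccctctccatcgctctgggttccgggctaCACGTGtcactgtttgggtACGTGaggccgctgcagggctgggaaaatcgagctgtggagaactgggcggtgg
Bnip3, chr1:203154913-203155212, minus strand: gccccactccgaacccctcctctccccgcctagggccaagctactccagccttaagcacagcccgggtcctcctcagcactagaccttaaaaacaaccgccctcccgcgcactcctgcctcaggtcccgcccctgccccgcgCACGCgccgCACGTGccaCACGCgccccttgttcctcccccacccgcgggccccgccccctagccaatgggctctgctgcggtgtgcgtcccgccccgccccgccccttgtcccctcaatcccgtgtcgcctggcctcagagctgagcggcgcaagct
Pdk1, chr3:77113264-77113563, plus strand: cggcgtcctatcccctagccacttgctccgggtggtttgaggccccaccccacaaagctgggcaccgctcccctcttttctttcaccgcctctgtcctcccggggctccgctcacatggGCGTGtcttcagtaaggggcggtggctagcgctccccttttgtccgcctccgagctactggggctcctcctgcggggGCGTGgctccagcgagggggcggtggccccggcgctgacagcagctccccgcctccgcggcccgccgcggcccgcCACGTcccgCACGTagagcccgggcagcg
P4ha1, chr20:27844796-27845095, plus strand: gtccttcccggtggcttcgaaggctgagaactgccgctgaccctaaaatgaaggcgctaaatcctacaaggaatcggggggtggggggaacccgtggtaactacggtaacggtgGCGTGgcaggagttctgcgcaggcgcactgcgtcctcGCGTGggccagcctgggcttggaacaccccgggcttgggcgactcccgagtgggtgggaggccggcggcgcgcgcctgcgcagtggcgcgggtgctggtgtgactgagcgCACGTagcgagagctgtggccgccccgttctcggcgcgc
The Ankrd37 window held 5 matches, those of Bnip3 and Pdk1 held 4 each, and that of P4ha1 held 3. In the table as a whole 8.15% of windows held 3 or more matches and 3.46% held 4 or more. A match is a description of letters and not of binding. Of these 4 genes, P4ha1 was at an unadjusted p under 0.05, and the other 3 had 95% intervals that spanned 0.

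All levels below are log2 signal relative to the 75th percentile of the array, from the brightest probe of each gene, and each difference is a log2 fold change of DPG over control, given with limma's standard error (SE, n = 3 per group). A level of one probe cannot be set against that of another probe. In the plot of the members by array, P4ha1 and Ndrg1 are the genes whose groups stand apart, and Egln3, Adm and Ankrd37 are those whose DPG rats spread widely.

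**Figure D1:**
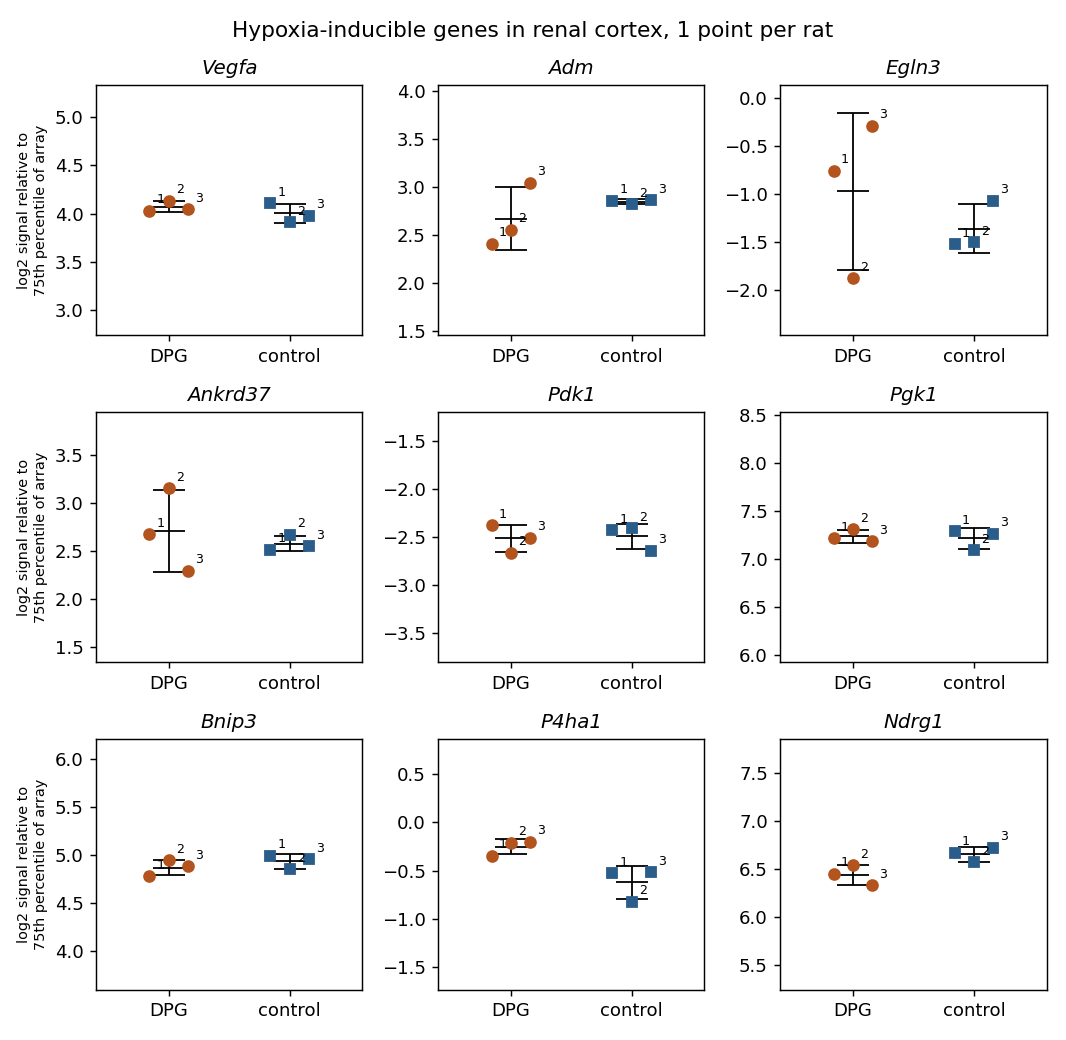
Log2 signal of the 9 measured hypoxia-inducible genes (vertical axes, each spanning the same number of log2 units) in DPG rats (circles, left) and control rats (squares, right). Each point is 1 rat with its replicate number, and the bar gives the mean and SD. P4ha1 is higher and Ndrg1 lower in all 3 DPG rats, while Egln3 in DPG rats lies between -1.87 and -0.29.

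The secreted ligands come first. Vegfa encodes the main growth factor for blood vessel endothelium, and podocytes and tubules make it. It had 4.03, 4.13 and 4.05 in DPG rats, against 4.11, 3.91 and 3.98 in control rats. The groups overlapped, and the log2 fold change was 0.07 ± 0.08 (limma adjusted p = 0.745). Its 95% interval ran from -0.12 to 0.26, which is 0.919-fold to 1.20-fold.

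Vegfa had 6 probes, designed on 2 of its transcripts, and 3 of them had a log2 fold change above 0 and 3 below 0. They ran from -0.17 to 0.12 when each probe was tested on its own. The probe with the lowest value, A_44_P300751, read 0.27, 0.08 and 0.13 in DPG rats, against 0.40, 0.28 and 0.30 in control rats. This was the one Vegfa probe whose groups did not overlap, and its limma adjusted p = 0.454.

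Adm encodes adrenomedullin, a peptide that widens blood vessels. It had 2.41, 2.56 and 3.04 in DPG rats, against 2.86, 2.82 and 2.86 in control rats. DPG 1 and DPG 2 lay below all controls and DPG 3 lay above them. The log2 fold change was -0.18 ± 0.17 (limma adjusted p = 0.700), and without DPG 3 it was -0.36, at 0.0068 before adjustment. Without DPG 1 it was -0.05, at 0.786 before adjustment. The control rats were close together (SD 0.02) and the DPG rats were not (SD 0.33).

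Epo encodes erythropoietin, the hormone that drives red blood cell formation. Neither of its 2 probes was well above background on any of the 6 arrays. Probe A_44_P320709 had a processed signal of 4.4, 4.0 and 4.0 in DPG rats, against 3.5, 3.3 and 5.8 in control rats. Probe A_64_P004043 had 8.7, 5.6 and 13.1 in DPG rats, against 10.9, 7.3 and 5.6 in control rats. For scale, the 75th percentile of the arrays lay between 852.5 and 888.8 in DPG rats and between 851.8 and 929.8 in control rats. No fold change is given for Epo, as it was not well above background in either group.

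Genes of the oxygen response itself were Egln3 and Ankrd37. Egln3 encodes a prolyl hydroxylase that marks the alpha subunit and is itself a target, so it takes part in feedback. It had -0.76, -1.87 and -0.29 in DPG rats, against -1.52, -1.50 and -1.07 in control rats. DPG 1 and DPG 3 lay above all controls and DPG 2 below all of them. The log2 fold change was 0.39 ± 0.41 (limma adjusted p = 0.726), with a 95% interval of 0.656-fold to 2.61-fold.

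Egln3 was the most variable of the 9 genes, with a residual SD of 0.60 on the log2 scale, above 96.6% of all features. Its log2 fold change was 0.84 without DPG 2, at 0.0118 before adjustment in limma, and 0.05 without DPG 3. The mean over leukocyte and macrophage markers had the same order as Egln3 among the DPG rats. The mean shift of the 5 measured markers from the control mean read 0.15, -0.22 and 0.35 for DPG 1 to 3, against -0.065, 0.10 and -0.04 for controls 1 to 3. The mean over interstitial fibroblast and pericyte markers had shifts of 0.12, -0.15 and 0.29 in DPG 1 to 3, against 0.03, 0.10 and -0.13 in controls 1 to 3. Csf1r of the leukocyte list and Pdgfrb, Nt5e and Col1a1 of the fibroblast list did not have that order by themselves. Among the controls, Egln3 was highest in control 3 (shift 0.29), where the fibroblast mean was lowest. The leukocyte mean was highest in control 2. The summed relative signal of the leukocyte list lay between 29.3 and 44.3 in DPG rats, against between 32.3 and 41.5 in control rats. Its brightest probe, that of Cd74 (mean 4.99 in DPG rats and 4.98 in control rats), weighs most in this sum. Of that list Ptprc, Cd68, Csf1r, Cd74 and Adgre1 were measured and Cd163 was not well above background. The fibroblast list summed to between 16.1 and 23.1 in DPG rats, against between 16.3 and 20.9 in control rats, with Lum not well above background and 5 of 6 markers measured. The mean over adipocyte markers had that order too, with shifts of 0.56, 0.07 and 0.65 in DPG 1 to 3, against -0.16, 0.30 and -0.14 in controls 1 to 3. The single adipocyte markers were split, with 2 above 0 and 2 below 0. Fabp4 had a log2 fold change of 1.89 ± 0.70 and Cidec 0.56 ± 0.20, against -0.45 ± 0.14 for Adipoq and -0.29 ± 0.35 for Cfd. Of the adipocyte markers only Adipoq had, by itself, the order of Egln3 among the DPG rats. Of 6 adipocyte markers 4 were measured and Lep was not well above background, and the list summed to between 2.98 and 4.33 in DPG rats, against between 2.88 and 3.39 in control rats. The part of these cells in the Egln3 values was not tested.

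**Figure D2:**
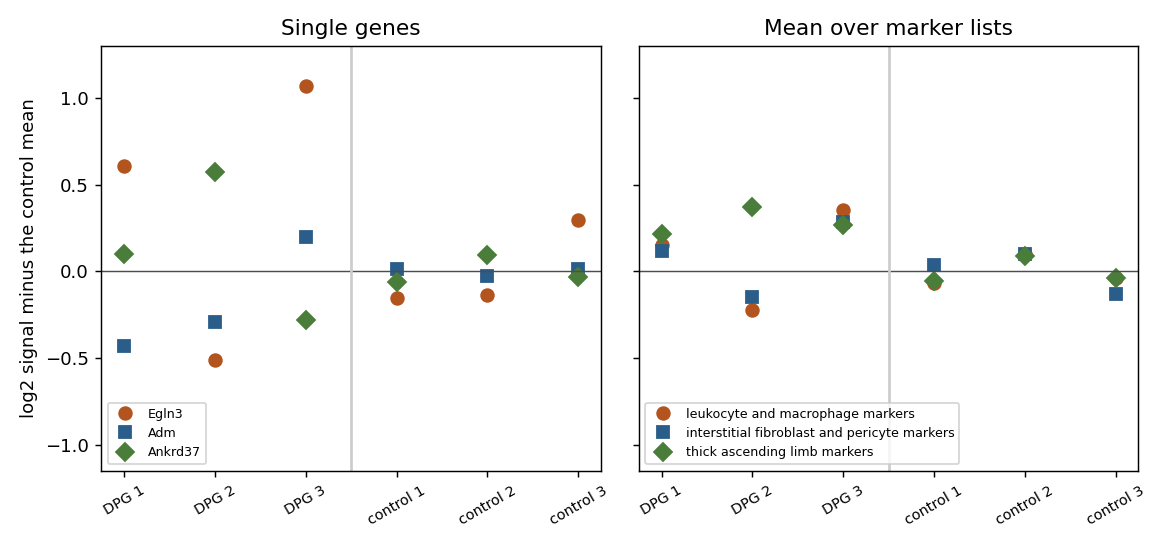
Log2 signal of each array minus the control mean (vertical axis), for Egln3, Adm and Ankrd37 (left panel) and for the mean over 3 marker lists (right panel). Arrays run along the horizontal axis, DPG 1 to 3 and then control 1 to 3. Egln3 reads 0.605, -0.51 and 1.07 in the DPG rats, where Ankrd37 reads 0.10, 0.57 and -0.28.

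Ankrd37 encodes an ankyrin repeat protein and is a direct target of the factor in human cells. It had 2.68, 3.15 and 2.30 in DPG rats, against 2.52, 2.67 and 2.55 in control rats. DPG 2, the lowest rat for Egln3, was the highest for Ankrd37, and DPG 3, the highest for Egln3, was the lowest for Ankrd37. The log2 fold change was 0.13 ± 0.21 (limma adjusted p = 0.831), and it was -0.09 without DPG 2. The gene with 5 motif matches in its window thus had groups that overlapped.

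The metabolic targets were Pdk1 and Pgk1. Pdk1 encodes a kinase that blocks pyruvate dehydrogenase and so holds pyruvate back from the mitochondria. It had -2.38, -2.66 and -2.51 in DPG rats, against -2.42, -2.41 and -2.64 in control rats. The groups overlapped, with a log2 fold change of -0.02 ± 0.11 (limma adjusted p = 0.946). The 95% interval was 0.820-fold to 1.18-fold.

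Pgk1 encodes phosphoglycerate kinase, a glycolytic enzyme that makes ATP. It had 7.22, 7.31 and 7.18 in DPG rats, against 7.29, 7.09 and 7.27 in control rats. The groups overlapped, and the log2 fold change was 0.02 ± 0.08 (limma adjusted p = 0.938). Its second probe read -0.02 on the same scale. The 95% interval of the brighter probe, 0.883-fold to 1.17-fold, held no change as large as 1.5-fold.

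Bnip3 encodes a mitochondrial outer membrane protein that marks mitochondria for removal by autophagy. It had 4.78, 4.94 and 4.88 in DPG rats, against 4.99, 4.85 and 4.96 in control rats. The groups overlapped, with a log2 fold change of -0.07 ± 0.08 (limma adjusted p = 0.757), and the second probe read -0.08. Vegfa, Pdk1, Bnip3, Pgk1 and Ndrg1 were the 5 members whose 95% intervals lay wholly within 1.5-fold in either direction.

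P4ha1 encodes the catalytic subunit of the prolyl hydroxylase that stabilises collagen. It had -0.35, -0.21 and -0.20 in DPG rats, against -0.53, -0.82 and -0.52 in control rats. All 3 DPG rats lay above all 3 control rats. The log2 fold change was 0.37 ± 0.11, a 1.29-fold difference with a 95% interval of 1.08-fold to 1.55-fold. For P4ha1 limma gave an adjusted p = 0.313 (0.0137 before adjustment).

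Ndrg1 encodes a stress-responsive protein of the cytoplasm that is induced by low oxygen. Its brightest probe had 6.45, 6.54 and 6.33 in DPG rats, against 6.67, 6.57 and 6.72 in control rats. All 3 DPG rats lay below all 3 control rats, with DPG 2 and control 2 closest. The log2 fold change was -0.21 ± 0.08, with a 95% interval of 0.747-fold to 0.995-fold. For Ndrg1 limma gave an adjusted p = 0.396 (0.0445 before adjustment).

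The second Ndrg1 probe, A_44_P229800, read 2.92, 3.03 and 2.86 in DPG rats, against 3.36, 3.21 and 3.35 in control rats. Its groups stood further apart, with a log2 fold change of -0.37 ± 0.08 when each probe was tested on its own (limma adjusted p = 0.259). The side of the unadjusted threshold on which the brightest probe fell depended on single rats and on the scaling: p was 0.0895 and 0.125 without DPG 1 and DPG 3, 0.105 and 0.128 without control 1 and control 3, and 0.073 with median scaling. P4ha1 stayed under 0.05 in all of these. The plot of every probe shows both Ndrg1 probes below 0 and P4ha1 above 0, with every other interval across 0.

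**Figure D3:**
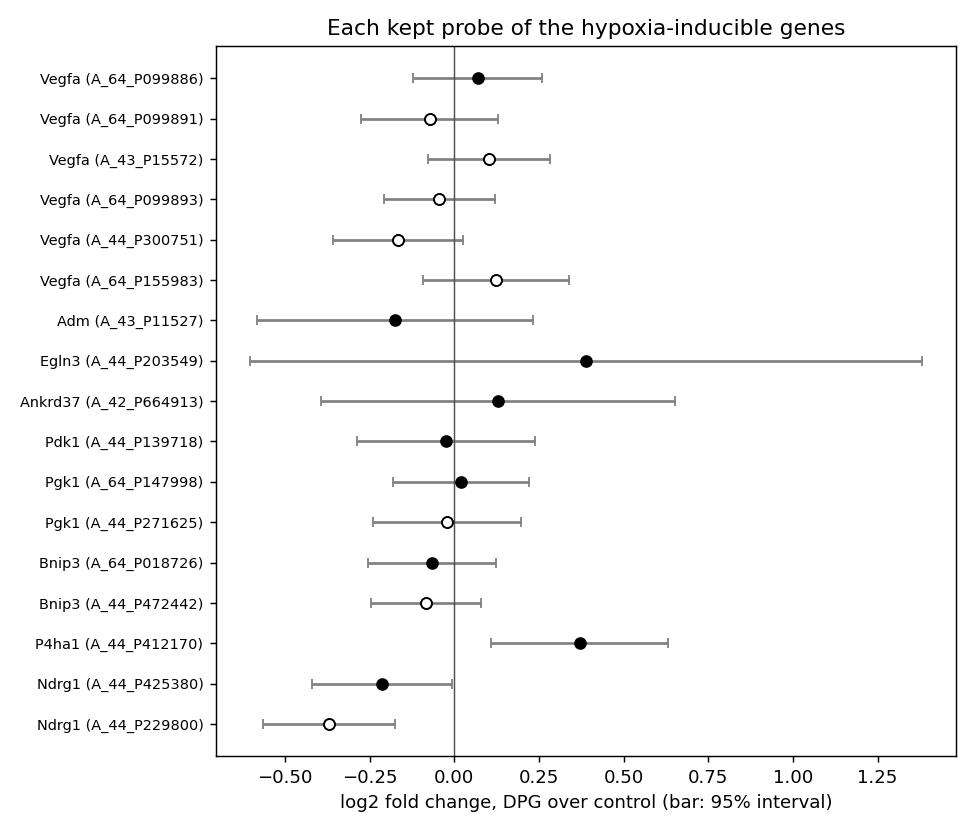
Log2 fold change, DPG over control, of each of the 17 kept probes (horizontal axis) with the 95% interval from limma over all probes. Filled points are the brightest probe of a gene and open points its other probes. The intervals of P4ha1 and of both Ndrg1 probes do not reach 0, while the 6 Vegfa probes lie on both sides of it.

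**Figure D4:**
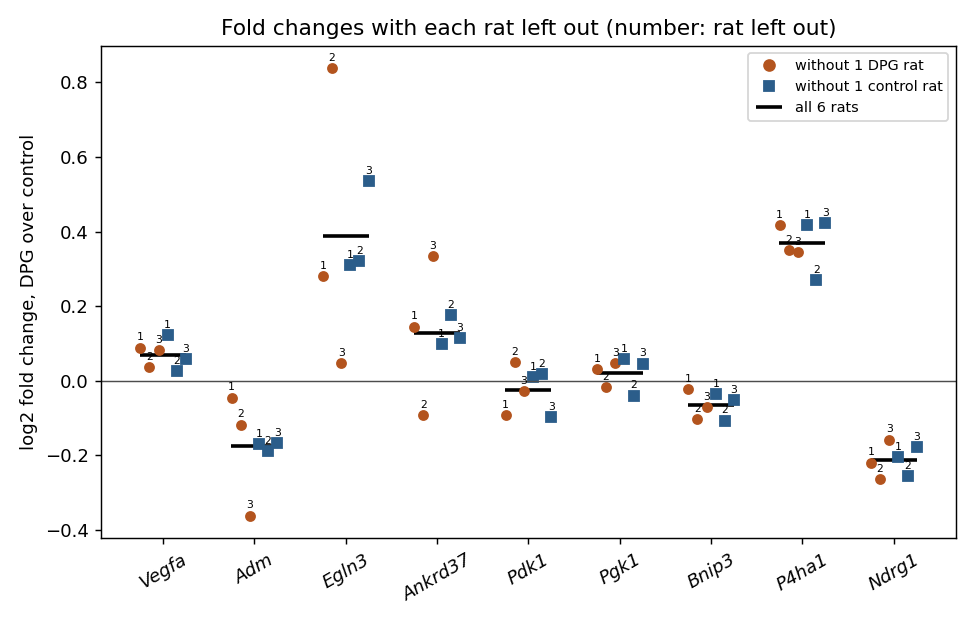
Log2 fold change, DPG over control (vertical axis), of the 9 measured genes with all 6 rats (bars) and with 1 rat left out (circles for DPG rats, squares for control rats, each with the number of the rat left out). P4ha1 stays above 0 and Ndrg1 below 0 in each case, whereas Egln3 runs from 0.05 to 0.84.

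Both P4ha1 and Ndrg1 were measured in whole cortex, where fewer cells of a type and less RNA per cell cannot be told apart. Markers of several segments and cell types were past an unadjusted p of 0.05 between the same arrays, where 6.68% of all features were higher and 5.7% lower. Of 6 thick ascending limb markers 4 were higher in DPG at an unadjusted p of 0.05. The summed relative signal of the 6 lay between 630.0 and 681.2 in DPG rats, against between 521.0 and 563.1 in control rats. A sum follows its brightest probe most, here Umod (mean 9.22 in DPG rats and 8.97 in control rats, 0.25 ± 0.07). Ptger3 of this list had -0.19 ± 0.14. Of 6 straight proximal tubule markers 3 were higher, with sums between 644.2 and 711.6 in DPG rats, against between 428.0 and 561.1 in control rats. Slc5a1 of this list had -0.12 ± 0.15. Of 6 convoluted proximal tubule markers 2 were lower, with sums between 793.2 and 868.1 in DPG rats, against between 855.9 and 974.6 in control rats. Lrp2 of this list had 0.11 ± 0.08. Of 6 podocyte markers 3 were lower, with sums between 29.2 and 36.0 in DPG rats, against between 31.4 and 39.7 in control rats. Of 6 endothelial markers 2 were higher, Pecam1 and Ehd3, both without overlap, with sums between 8.93 and 9.40 in DPG rats, against between 7.73 and 9.01 in control rats. The endothelial list was split, with 3 genes above 0 and 3 below 0 and a median log2 fold change of -0.03. Cdh5 had -0.14, Tie1 -0.11, Tek -0.06 and Emcn 0.00. Every marker of these 5 lists was well above background on all 6 arrays, and their part in the P4ha1 and Ndrg1 values was not tested. The remaining marker lists differed less or were split. Of 6 collecting duct markers 0 passed an unadjusted p of 0.05 in limma, where 12.4% of all features did. The red blood cell, leukocyte and fibroblast lists had 5 measured markers each, and 0 passed. Of 4 measured adipocyte markers 2 were higher and 1 lower.

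The machinery that senses oxygen showed little difference. Of 16 genes 13 were measured, and 0 of them passed an unadjusted p of 0.05 in limma, where 12.4% of all features did. The list had 11 genes above 0 and 2 below 0, where 50.8% of all features lay above 0. Its median log2 fold change was 0.062, with a range from -0.17 to 0.14. Hif1a, the alpha subunit that most cells use, had 2.45, 2.53 and 2.54 in DPG rats, against 2.49, 2.43 and 2.23 in control rats (0.13 ± 0.09). Its 3 probes ran from -0.06 to 0.13.

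Epas1 encodes the alpha subunit that drives erythropoietin. It had -0.28, -0.27 and -0.23 in DPG rats, against -0.20, -0.18 and 0.00 in control rats, and all DPG rats lay below the controls. The log2 fold change was -0.13 ± 0.08, and limma gave an adjusted p = 0.551. Hif1an, an asparagine hydroxylase that blocks the factor's activity, had -0.17 ± 0.08 and the smallest adjusted p of the list (limma, 0.455). Arnt had 0.14 ± 0.21, with 1 control array not well above background, while Vhl had 0.06 ± 0.09 and Egln2 0.04 ± 0.08. Crebbp, a coactivator, had 0.14 ± 0.08. Eloc, a part of the VHL complex, had 0.09 ± 0.06, and all its DPG rats lay above the controls. Egln1, Cul2 and Ep300 were not analysed here.

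Other target genes of the factors went both ways. Of 45 genes 41 were measured, with a median log2 fold change of 0.034. At an unadjusted p of 0.05, 5 were higher and 3 lower in DPG, which is 19.5% against 12.4% of all features, and 0 passed the adjusted threshold. Slc2a1, Pfkp, Angpt2 and Plod2 were among the higher ones, and the lower ones were Wsb1, Car12 and Pfkfb4.

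Slc2a1 encodes the glucose transporter GLUT1. Its promoter window held 4 motif matches, where 3.46% of all windows held 4 or more, and the windows of the other genes of this list were not looked at. It had 2.13, 2.21 and 2.07 in DPG rats, against 1.59, 1.69 and 1.77 in control rats, so the groups did not overlap. Pfkp, the platelet form of the glycolytic enzyme phosphofructokinase, had 3.03, 2.98 and 2.92 in DPG rats, against 2.50, 2.61 and 2.43 in control rats. Its log2 fold change was 0.46 ± 0.07 (limma adjusted p = 0.214), a 1.38-fold difference, and that of Slc2a1 was 1.37-fold. Angpt2, a vessel growth factor that opposes angiopoietin 1, had -0.00 ± 0.05 in DPG rats and -0.45 ± 0.22 in control rats (SD), a log2 fold change of 0.44 ± 0.12.

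On the lower side, Wsb1, a ubiquitin ligase adaptor, had 3.79, 3.80 and 3.90 in DPG rats, against 4.28, 4.32 and 4.14 in control rats. Its log2 fold change was -0.42 ± 0.08 (limma adjusted p = 0.220), and its 2 probes read -0.43 and -0.42. Car12, a membrane carbonic anhydrase, had -0.39 ± 0.10 and 2 probes from -0.39 to -0.33. Pfkfb4, which makes the activator of phosphofructokinase, had -0.37 ± 0.10. The groups did not overlap for Wsb1, Car12 or Pfkfb4, and their limma adjusted p lay between 0.220 and 0.292. Among textbook targets, Car9 had -0.13 ± 0.11, Ldha 0.00 ± 0.12, Aldoa -0.10 ± 0.07, Eno1 -0.07 ± 0.15, Bnip3l 0.11 ± 0.07 and Hk2, not well above background on 1 control array, -0.10 ± 0.28.

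**Figure D5:**
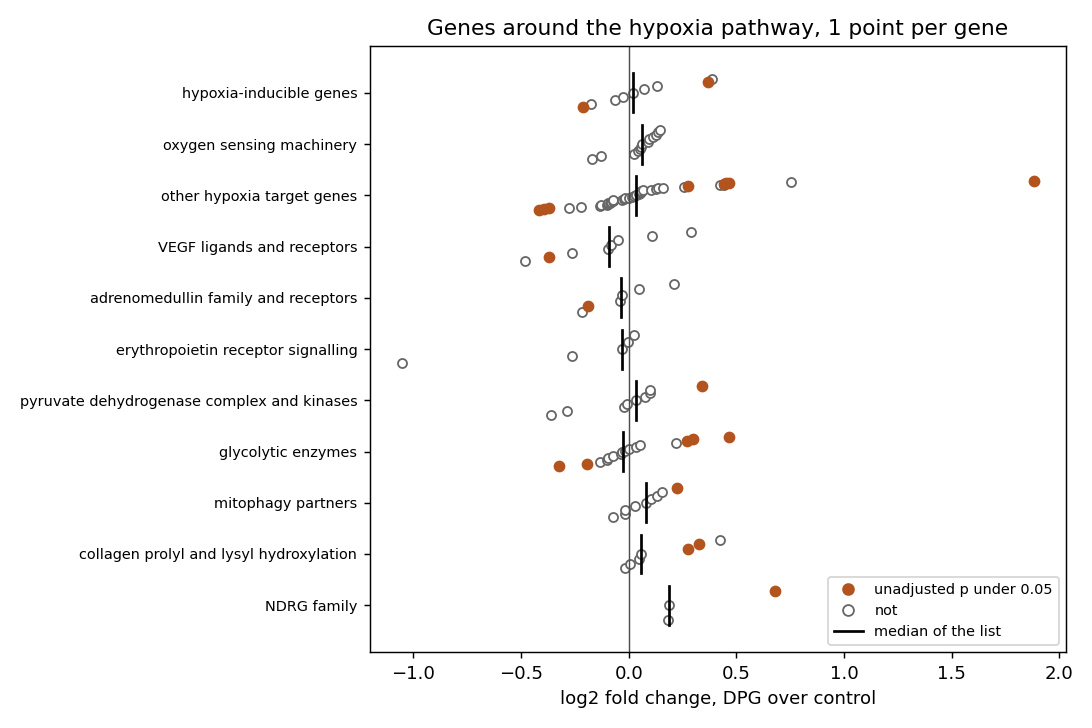
Log2 fold change, DPG over control (horizontal axis), of each measured gene in the hypoxia-inducible list and 10 lists around it. Filled points have an unadjusted limma p under 0.05, open points do not, and the vertical bar is the median of the list. The medians lie between -0.09 (VEGF ligands and receptors) and 0.19 (NDRG family).

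The partners of each member were read in the same way, beside the 6.68% of all features that were higher and the 5.7% that were lower at an unadjusted p of 0.05. For Vegfa, 8 of 9 other ligands and receptors were measured, and 0 were higher and 1 lower at an unadjusted p of 0.05. This was Nrp1, a co-receptor of VEGF, which had -0.40, -0.49 and -0.48 in DPG rats, against -0.04, 0.01 and -0.24 in control rats (-0.37 ± 0.09, limma adjusted p = 0.269). All DPG rats lay below the controls. The main receptors Kdr and Flt1 had -0.10 ± 0.12 and -0.05 ± 0.10, and the lymphatic receptor Flt4 had -0.48 ± 0.27, with a second probe at -0.03. Flt4 read -0.16 without control 2, whose level of -0.42 lay above the -1.47 and -1.33 of controls 1 and 3.

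For Adm, 6 of 7 family members and receptor parts were measured, and Calca, the gene of calcitonin and its related peptide, was the 1 that passed an unadjusted p of 0.05. Its log2 fold change was -0.19 ± 0.07, but its second probe read 0.16. The receptor activity-modifying genes Ramp2 and Ramp3 had 0.05 ± 0.09 and 0.21 ± 0.17, and the receptor gene Calcrl was not well above background on all arrays of either group. For Epo, 0 of 5 receptor signalling genes passed, and the receptor gene Epor had -0.26 ± 0.23.

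For Pdk1, 9 of 10 genes of the pyruvate dehydrogenase complex and its regulators were measured, and Pdk3 was the 1 that passed an unadjusted p of 0.05. Pdk3, a sister kinase, had 0.81, 0.93 and 0.58 in DPG rats, against 0.45, 0.49 and 0.35 in control rats. The groups did not overlap (0.34 ± 0.11, limma adjusted p = 0.333), and its 2 probes read 0.34 and 0.36. The abundant kidney kinase gene Pdk2 had -0.02 ± 0.07 and the fasting-induced Pdk4 had -0.36 ± 0.31.

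For Pgk1, all 16 glycolytic enzymes of the list were measured, and at an unadjusted p of 0.05 limma found 3 higher and 2 lower (31.2%, against 12.4% of all features). The higher ones were Pfkp, already counted among the other target genes, the hexokinase gene Hk1 (0.30 ± 0.09) and the pyruvate kinase gene Pkm (0.27 ± 0.11). The lower ones were the aldolase gene Aldoc (-0.33 ± 0.11) and the lactate dehydrogenase subunit gene Ldhb (-0.19 ± 0.08). The median of the list was -0.024, and 0 genes passed the adjusted threshold.

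For Bnip3, 9 of 9 mitophagy partners were measured, and 1 passed an unadjusted p of 0.05. This was Bcl2l1, which encodes the survival protein BCL-XL that Bnip3 can bind, with 0.22 ± 0.07 (limma adjusted p = 0.349) and 6 probes from 0.06 to 0.32. Pink1, the kinase that flags damaged mitochondria, had 0.08 ± 0.06.

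For P4ha1, 7 of 8 genes of collagen prolyl and lysyl hydroxylation were measured. Of these 6 were above 0 and 1 below 0, where 50.8% of all features lay above 0. At an unadjusted p of 0.05, 2 were higher (28.6%, against 6.68% of all features) and 0 lower. Plod1, Plod2 and P4ha2 were counted among the other target genes too. Plod2, a lysyl hydroxylase, had 0.06, 0.03 and 0.04 in DPG rats, against -0.32, -0.03 and -0.35 in control rats, without overlap (0.28 ± 0.10). P3h1, a prolyl 3-hydroxylase, had 0.33 ± 0.13, and its 3 probes ran from 0.04 to 0.33. P4ha2, the sister subunit of P4ha1, had 2.87, 2.35 and 1.99 in DPG rats, against 2.08, 2.03 and 1.83 in control rats. DPG 3 lay among the controls, and the log2 fold change was 0.42 ± 0.23 (limma adjusted p = 0.506). The shared beta subunit gene P4hb had 0.05 ± 0.09, and P4ha3 was not well above background on all arrays of either group.

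For Ndrg1, the 3 other NDRG genes were all above 0, on the opposite side to Ndrg1, where 50.8% of all features lay above 0. Ndrg4 had 1.73, 1.56 and 1.10 in DPG rats, against 0.55, 1.14 and 0.66 in control rats, with DPG 3 just under control 2. Its log2 fold change was 0.68 ± 0.22 (limma adjusted p = 0.342), and its 2 probes read 0.68 and 0.70. Ndrg2 and Ndrg3 had 0.18 ± 0.08 and 0.19 ± 0.10, and neither passed an unadjusted p of 0.05. One of the 4 Ndrg3 probes read -0.05.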

How the data were processed

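The 6 scanner files hold Cy3 spot intensity. Per the file headers they were written by Agilent Feature Extraction 10.7.1.1, which the submitters' processing notes give as 10.7. The main value is the deposited processed signal, a linear intensity that, per the file headers, is background-subtracted and spatially detrended but not scaled between arrays. A second deposited file, covering all arrays, gives each spot as a ratio. Its divisor, close to each array's 75th percentile, is not stated in the labels, its direction matches the scanner signal, its column medians lay between 0.108 and 0.112 for DPG arrays and between 0.110 and 0.114 for control arrays, and it served as 1 alternative. The series' design text gives 2 groups with 3 biological replicates each.

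Control spots were left out. From log2 of the processed signal the array's own 75th percentile was taken off. There were 40406 probes well above background throughout 1 group or both. Of these, 23 with an outlier flag were dropped and the rest were kept. No spot was saturated. Accessions without versions were matched to RefSeq genes of GRCr8 (28206 probes, 15645 symbols, with 33331 probes unnamed), no gene coordinates are given since the array was designed on another assembly, and the brightest kept probe stood for a gene (29647 features). DPG was set against control by lmFit and eBayes of limma 3.58.1 (R 4.3.3, two-sided), with Benjamini-Hochberg adjustment over all features, and 4 residual and 1.95 prior degrees of freedom. Values of a second probe come from the same fit with each probe on its own. An exact permutation test of 3 against 3 cannot go below p = 0.1. On simulated data for the 29647 features, this fit found, at an adjusted p of 0.05, 32% of the genes given a 1.5-fold change and 76% of those given a 2-fold change, with 4 false calls. The simulated noise was independent and normal, with limma's moderated SD of each feature and no slide or scan effect. The shares found in the real arrays may thus be lower.

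The members and gene lists were chosen with earlier results of these data known. The genes named are the 10 members, up to 6 of each list by smallest p, and fixed textbook genes of the pathway. Other settings tried were normexp (offset 50), scaling by the median, quantile normalization, other filters on dim probes and outlier flags, averaging the probes of a gene, testing each probe alone, limma's trend and robust options, array quality weights, the replicate block, the deposited table (log2 of the value plus 0.0001) and each animal left out. Some genes of the lists are counted but not reported here by name.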

Additional observations from a re-analysis of the deposited data

How the results depend on the processing

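The count of features past the adjusted threshold was 0 under every alternative run on the full 6 arrays. Leaving out single rats gave 0 to 1 (1 without DPG 2 and 1 without control 2). The count of hypoxia-inducible genes past an unadjusted p of 0.05, 2 in the report, was 1 with median scaling, 1 with no filter on dim probes and 1 with the replicate block, where 11.7%, 7.31% and 10.1% of all features passed, against 12.4% in the report. Leaving out single rats gave counts of 1 (DPG 1, control 1 or control 3 absent) to 3 (DPG 2 absent), where 8.57% to 13.2% of all features passed. With median scaling, no filter and the block the gene lost was Ndrg1, with p of 0.073, 0.0721 and 0.109 and log2 fold changes of -0.199, -0.214 and -0.214, against -0.214 in the report, and the cause was not tested. The count of other target genes, 8 in the report, was 13 when probes, not genes, were counted, 12 with normexp (15.1% of all features), and 7 to 9 with single rats left out. Same-numbered rats did not deviate together (correlations of -0.023, -0.087 and -0.069 across features), so the replicate block pairs nothing but a number, and under the replicate block P4ha1 had p = 0.0332. The median of the members, 0.021, ran from -0.024 (every probe on its own) to 0.057 (without control 1). Values near 0 turned sign: Pdk1 read 0.0553 with normexp and Pgk1 -0.000445 with the mean of its probes. With single rats left out Pdk1 ran from -0.0987 to 0.0493, Pgk1 from -0.0403 to 0.0573 and Ankrd37 from -0.0922 to 0.335. Before adjustment limma put Egln3 at 0.0118 without DPG 2 and Adm at 0.0068 without DPG 3. A slide block could not be fitted. Signal near background limits Epo, which has no usable value here.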

Other observations

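A few further genes of the lists were named after their values were seen. Ddit4, a stress-induced brake on mTOR, had 3.31, 3.05 and 2.57 in DPG rats, against 2.08, 2.97 and 1.63 in control rats, and the groups overlapped (0.75 ± 0.37). Mxi1, a partner of MAX that opposes MYC, had 3.48, 3.37 and 3.34 in DPG rats, against 2.52, 3.14 and 3.21 in control rats, without overlap (0.44 ± 0.19, limma adjusted p = 0.430), and its 4 probes ran from 0.06 to 0.44.

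Cish, a STAT5 target that dampens cytokine and growth hormone signals, had -0.63, 0.10 and -1.29 in DPG rats, against 1.75, -1.23 and 0.82 in control rats. Its control rats spread by an SD of 1.52, and its 2 probes had log2 fold changes of -1.05 and -0.95. The groups overlapped, and limma gave an adjusted p = 0.627. The value was -1.89 without control 2 and -0.40 without control 1.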
